A study of Mus musculus with 18 samples.

Results

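Transcripts of 7 GABA-A receptor subunits were followed across mouse hippocampus and prefrontal cortex: Gabra2, Gabra3, Gabra4 and Gabra5 of the alpha class, Gabrb1 and Gabrb2 of the beta class, and Gabrd, the delta subunit. The 7 were taken by name from the 18683 genes of the deposited expression table, which lists 19 genes of the Gabr family in all.

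GABA-A receptors are chloride channels opened by the inhibitory transmitter GABA, and each is a pentamer built from several subunit classes, most often alpha, beta and gamma together. The alpha subunit sets much of the receptor's pharmacology and place in the cell. Many receptors gather at synapses, whereas alpha5 receptors of hippocampal pyramidal cells and the alpha4 and delta receptors of dentate granule cells lie largely outside them and carry a steady, tonic inhibition.

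Bulk RNA was sequenced from both tissues of male mice in 3 groups, with 3 libraries per group and tissue and 18 libraries in all. The vesicle-treated 5xFAD mice received extracellular vesicles from human breast milk, the 5xFAD PBS mice received PBS and the wildtype mice, labelled strain C57BL/6J, also received PBS. All injections were intravenous, given every 3 days for 10 times from 5 to 6 months of age, and all mice were perfused with PBS after behavioural tests. The labels give the same strain for all 3 groups. The 5xFAD line carries human transgenes with familial Alzheimer mutations under the Thy1 promoter, which is active in neurons, so both 5xFAD groups carry the transgenes and only the comparison with wildtype holds genotype. The labels do not state whether each replicate was its own mouse, or whether a number shared by both tissues means one mouse, so p-values here measure only how far these libraries spread, and that spread may be technical. The values are FPKM, which divide each gene's fragments by its length and by the size of the library.

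Reads recovered from the FPKM steps summed to between 26437852 and 36901744 per library, and each of the 7 subunits had between 518 and 15349 reads in every library. In wildtype libraries the dentate and neocortical markers followed the tissue labels. The 8 dentate granule cell markers summed to 80.4 to 85.9 FPKM in hippocampus and 7.99 to 9.63 FPKM in prefrontal cortex. The 10 neocortical markers summed to 64.4 to 84.99 FPKM in hippocampus and 160.2 to 174.7 FPKM in prefrontal cortex. Across all groups the 10 striatal projection neuron markers summed to 75.4 to 124.9 FPKM in hippocampus and 127 to 772 FPKM in prefrontal cortex. Replicate 3 of vesicle-treated 5xFAD prefrontal cortex stood apart. Its 5 cerebellar granule cell markers (Gabra6, Cbln3, Fat2, Barhl1 and Neurod1, all listed in the table) summed to 309 FPKM, against 3.77 to 10.8 FPKM in the other 17 libraries, where Barhl1 was at 0 in all 3 wildtype prefrontal cortex libraries. Its 12 choroid plexus markers summed to 872 FPKM, against 5.06 to 13.98 FPKM in the other 8 prefrontal libraries. Values for vesicle-treated 5xFAD mice that use their prefrontal cortex include this library unless its omission is stated. It also entered the shared spread of every prefrontal cortex fit and every fit over both tissues. Intervals and p-values of the other 2 groups in those fits thus depend on it too, unless its omission is stated. The 12 choroid plexus markers, none of them at 0 throughout a group, summed to 190.4 to 5765 FPKM in vesicle-treated 5xFAD hippocampus and 2647 to 8987 FPKM in 5xFAD PBS hippocampus, against 37.5 to 172.0 FPKM in wildtype hippocampus. In 5xFAD PBS hippocampus replicate 3 the 8 thalamic and habenular markers summed to 57.4 FPKM, against 19.5 to 28.4 FPKM in the other 17 libraries. This library had the highest hippocampal level of Gabra3 and Gabra4 and the lowest of Gabra5. The part of thalamic and habenular tissue in these levels was not tested. In bulk tissue, fewer cells of a type and less RNA per cell cannot be told apart.

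**Figure D1:**
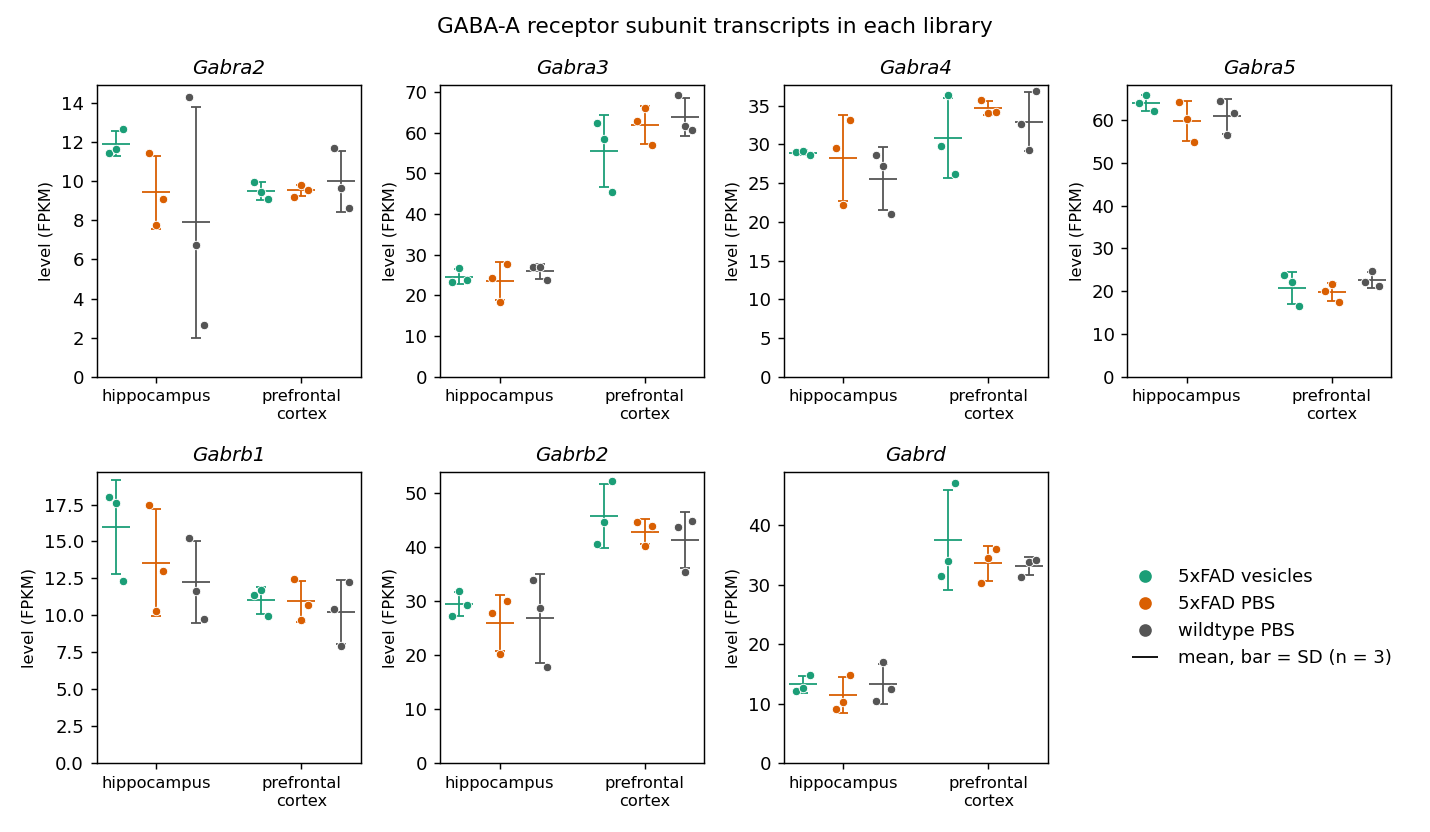
Level in FPKM (y axis, from 0) of each of the 7 subunits in each of the 18 libraries, with the 3 replicates of a group from left to right, a horizontal line at the group mean and a bar for the SD (n = 3). Gabra5 is higher in hippocampus, Gabra3, Gabrb2 and Gabrd are higher in prefrontal cortex, and within a tissue the groups of mice overlap for every subunit except Gabra2 in vesicle-treated 5xFAD against 5xFAD PBS hippocampus.

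The clearest pattern was between tissues. Hippocampus had more Gabra5 and less Gabra3, Gabrb2 and Gabrd than prefrontal cortex in each of the 3 groups of mice, and Gabra2, Gabra4 and Gabrb1 did not pass the test in any. The test was limma on log2(FPKM + 0.5) across the 13574 genes that reached 0.5 FPKM in 3 or more libraries, a filter that all 7 subunits passed, and a gene was called at a Benjamini-Hochberg adjusted p under 0.05. In vesicle-treated 5xFAD mice 4 of 7 subunits were called, against 16.9% of all genes tested, in 5xFAD PBS mice 4 of 7, against 25.1%, and in wildtype mice 4 of 7, against 15.9%. The 7 were chosen with earlier results of these data known, so these counts are no test of the family. The groups of libraries of the 2 tissues did not overlap for 6 of 7 subunits in vesicle-treated 5xFAD mice, 5 of 7 in 5xFAD PBS mice and 5 of 7 in wildtype mice, where 30.9% of all genes did not overlap in vesicle-treated 5xFAD, 42.8% in 5xFAD PBS and 33.8% in wildtype mice. By direction, 1 of 7 was called higher in hippocampus in each group, against 8.6% of all genes in vesicle-treated 5xFAD, 15.3% in 5xFAD PBS and 8.72% in wildtype mice, and 3 of 7 were called lower, against 8.32% in vesicle-treated 5xFAD, 9.78% in 5xFAD PBS and 7.16% in wildtype mice. At an unadjusted p under 0.05 the count was 5 of 7 in each group, and limma voom on the recovered reads called 4 of 7. Besides the 4 called, Gabrb1 passed unadjusted in vesicle-treated 5xFAD mice and Gabra4 in 5xFAD PBS and wildtype mice. The share of all genes at this unadjusted level is not given here. Under the alternatives that kept every library, voom among them, 2221 to 2992 genes were called in vesicle-treated 5xFAD mice. The ranges were 3303 to 4088 in 5xFAD PBS and 2058 to 2819 in wildtype mice. The median log2 difference of the 7 was -0.08 in vesicle-treated 5xFAD, -0.31 in 5xFAD PBS and -0.58 in wildtype mice, beside -0.01, 0.06 and 0.04 over all genes tested in these groups. Without the library with cerebellar markers the median in vesicle-treated 5xFAD mice was -0.18, and Gabra5, Gabra3 and Gabrd were called there while Gabrb2 was not.

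Markers of cell types also differed between the tissues. Of 7 general neuron markers, 1 was called higher and 4 lower in hippocampus in vesicle-treated 5xFAD mice, 0 and 5 in 5xFAD PBS mice and 0 and 3 in wildtype mice, and 6 of 7 oligodendrocyte markers were called higher in each group. Of 11 measured GABAergic interneuron markers, 6 were called lower in vesicle-treated 5xFAD, 6 in 5xFAD PBS and 4 in wildtype mice, with sums of 681 to 1086 FPKM in hippocampus and 873 to 1252 FPKM in prefrontal cortex. Of 10 striatal projection neuron markers, 5 were called lower in hippocampus in vesicle-treated 5xFAD, 10 in 5xFAD PBS and 8 in wildtype mice, with median log2 differences of -1.44, -2.42 and -2.25 in these groups. Of the 12 choroid plexus markers, 6 were called higher in vesicle-treated 5xFAD, 12 in 5xFAD PBS and 1 in wildtype mice, and of 8 microglia markers 4, 2 and 0 were. Over all genes 8.6%, 15.3% and 8.72% were called higher and 8.32%, 9.78% and 7.16% lower in vesicle-treated 5xFAD, 5xFAD PBS and wildtype mice. The 1 of 12 choroid plexus markers in wildtype mice is a share near that of all genes. With the library of cerebellar markers left out, 4 striatal, 11 choroid plexus, 3 microglia and 5 oligodendrocyte markers were called in these directions in vesicle-treated 5xFAD mice. The part of all these markers in the values of the subunits was not tested.

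Gabra5 encodes alpha5, the subunit of the extrasynaptic receptors of hippocampal pyramidal cells. In hippocampus it was at 63.9, 65.7 and 62.2 FPKM in vesicle-treated 5xFAD mice, 64.2, 60.3 and 54.8 FPKM in 5xFAD PBS mice and 64.5, 56.4 and 61.7 FPKM in wildtype mice. In prefrontal cortex it was at 23.7, 22.1 and 16.6 FPKM in vesicle-treated 5xFAD mice, 20.1, 21.7 and 17.5 FPKM in 5xFAD PBS mice and 22.1, 24.7 and 21.2 FPKM in wildtype mice. The lowest hippocampal library, at 54.8 FPKM, was above the highest prefrontal one, at 24.7 FPKM, and within each tissue the 3 groups of mice overlapped. The log2 difference, hippocampus minus prefrontal cortex, was 1.61 (95% interval 1.37 to 1.86) in vesicle-treated 5xFAD mice, 1.57 (1.33 to 1.82) in 5xFAD PBS mice and 1.41 (1.17 to 1.65) in wildtype mice. The limma adjusted p was 9.67e-08 in vesicle-treated 5xFAD mice, 1.71e-07 in 5xFAD PBS mice and 4.49e-07 in wildtype mice. Without the library with cerebellar markers, Gabra5 differed by 1.46 in vesicle-treated 5xFAD mice.

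Gabra3 encodes alpha3, which is found at many forebrain synapses and in the reticular thalamus. In hippocampus it was at 23.3, 26.7 and 23.8 FPKM in vesicle-treated 5xFAD mice, 24.3, 18.4 and 27.6 FPKM in 5xFAD PBS mice and 26.9, 27.1 and 23.7 FPKM in wildtype mice. Prefrontal levels of Gabra3 were 62.4, 58.5 and 45.4 FPKM in vesicle-treated 5xFAD mice, 62.9, 66.1 and 56.9 FPKM in 5xFAD PBS mice and 69.2, 61.7 and 60.7 FPKM in wildtype mice. All 9 hippocampal libraries, at 18.4 to 27.6 FPKM, were below all 9 prefrontal ones, the lowest of which was the library with cerebellar markers at 45.4 FPKM. Gabra3 was lower in hippocampus by a log2 difference of -1.15 (95% interval -1.43 to -0.86) in vesicle-treated 5xFAD mice, with a limma adjusted p of 1.90e-05. It was lower by -1.40 (-1.69 to -1.12) in 5xFAD PBS mice, with an adjusted p of 2.62e-06, and by -1.29 (-1.57 to -1.004) in wildtype mice, with an adjusted p of 5.90e-06. With the library of cerebellar markers left out, the difference of Gabra3 in vesicle-treated 5xFAD mice was -1.28.

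Gabrb2 encodes beta2, one of the subunits that form the GABA binding site together with an alpha subunit. In hippocampus it was at 27.3, 31.8 and 29.2 FPKM in vesicle-treated 5xFAD mice, 27.7, 20.2 and 30.0 FPKM in 5xFAD PBS mice and 33.9, 28.7 and 17.8 FPKM in wildtype mice. Prefrontal levels of Gabrb2 were 40.5, 44.5 and 52.2 FPKM in vesicle-treated 5xFAD mice, 44.5, 40.1 and 43.8 FPKM in 5xFAD PBS mice and 43.6, 35.3 and 44.7 FPKM in wildtype mice. The tissues did not overlap, but the gap was narrow, from 33.9 FPKM in the highest hippocampal library to 35.3 FPKM in the lowest prefrontal one. The log2 difference of Gabrb2, hippocampus minus prefrontal cortex, was -0.62 (95% interval -1.02 to -0.22, adjusted p = 0.0316 by limma) in vesicle-treated 5xFAD mice. In 5xFAD PBS mice it was -0.73 (-1.13 to -0.33, adjusted p = 0.00987), and in wildtype mice -0.65 (-1.05 to -0.25, adjusted p = 0.0253). These calls depended on single libraries: with 1 library left out at a time, Gabrb2 stayed called in 2 of 6 fits in vesicle-treated 5xFAD mice, 5 of 6 in 5xFAD PBS mice and 3 of 6 in wildtype mice. Leaving out wildtype hippocampus replicate 3, the lowest library, gave -0.39 with an adjusted p of 0.141, and leaving out prefrontal replicate 1 or 3 of the wildtype mice gave adjusted p-values of 0.0916 and 0.0928. Without 5xFAD PBS hippocampus replicate 2 the value was -0.56 with an adjusted p of 0.0630. In vesicle-treated 5xFAD mice Gabrb2 had adjusted p-values of 0.0682 without prefrontal replicate 2, 0.113 without prefrontal replicate 3, 0.107 without hippocampus replicate 1 and 0.0672 without hippocampus replicate 3, and 0.0513 with no filter on low values.

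Gabrd encodes delta, which takes the place of gamma in receptors of tonic inhibition, with alpha4 in the forebrain and alpha6 in cerebellar granule cells. In hippocampus it was at 12.2, 12.7 and 14.9 FPKM in vesicle-treated 5xFAD mice, 9.20, 10.3 and 14.8 FPKM in 5xFAD PBS mice and 10.4, 16.9 and 12.5 FPKM in wildtype mice. Its prefrontal levels were 31.5, 33.9 and 47.0 FPKM in vesicle-treated 5xFAD mice, 30.2, 34.5 and 35.9 FPKM in 5xFAD PBS mice and 31.3, 33.8 and 34.1 FPKM in wildtype mice. Every hippocampal library, up to 16.9 FPKM, was below every prefrontal one, from 30.2 FPKM. The highest prefrontal value of Gabrd, 47.0 FPKM, was that of the library with cerebellar markers. The log2 difference of Gabrd was -1.45 (95% interval -1.83 to -1.06, adjusted p = 4.02e-05 by limma) in vesicle-treated 5xFAD mice, and -1.27 without that library. It was -1.54 (-1.93 to -1.15, adjusted p = 2.25e-05) in 5xFAD PBS mice and -1.31 (-1.70 to -0.92, adjusted p = 0.000108) in wildtype mice.

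Gabra5, Gabra3 and Gabrd were called in every fit with 1 library left out and under every other processing alternative. The interval between tissues for these subunits did not reach 0 in any group of mice, as the plot of tissue differences shows.

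**Figure D2:**
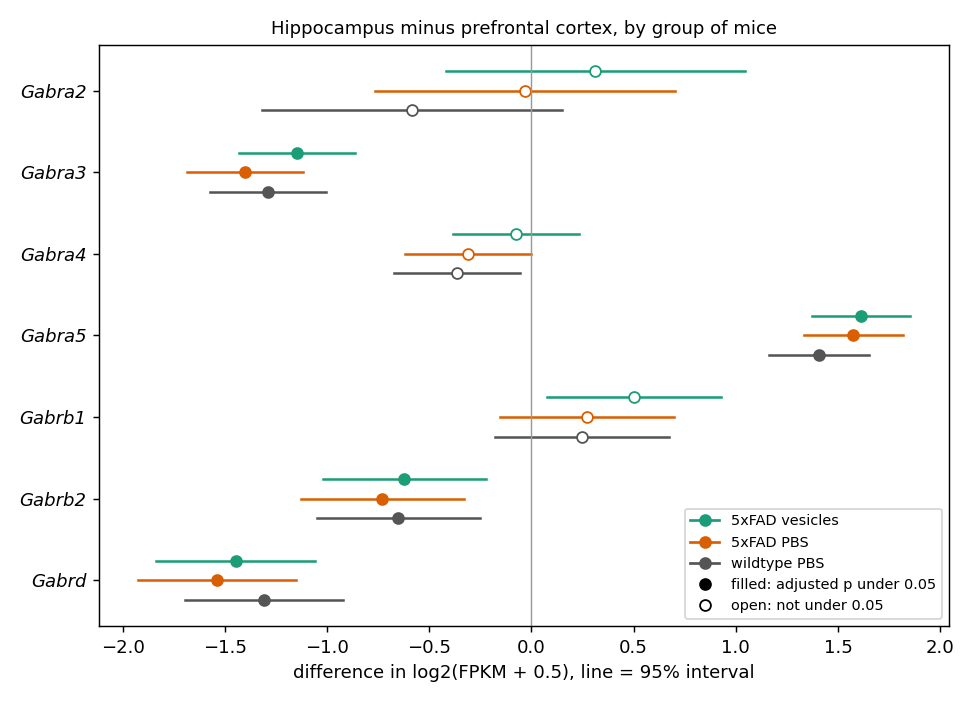
Difference in log2(FPKM + 0.5), hippocampus minus prefrontal cortex (x axis), for each subunit and group of mice, with a line for the 95% interval and filled points where the limma adjusted p was under 0.05 (n = 3 libraries per group and tissue). Gabra5 lies between 1.41 and 1.61, Gabra3, Gabrb2 and Gabrd lie below 0, and Gabra2, Gabra4 and Gabrb1 have open points in all 3 groups.

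Upstream sequences of Gabra5, Gabra3 and Gabrb2 are shown because these subunits differed between the tissues, in opposite directions, and have an entry in the RefSeq promoter table (build GRCm38.p6), which matched 6 of the 7 subunits with 10 start sites. Each is the 250 bases before the first listed start site, written 5′ to 3′ on the gene's strand, with capitals at matches on either strand to 5 motifs: the TATA box letters TATAAA, the CCAAT box letters CCAAT, the GC box letters GGGCGG, the cyclic AMP response half-site TGACG and the E-box CACGTG. Gabra5 lies at chr7:57510060-57510309 on the minus strand, Gabra3 at chrX:72656920-72657169 on the minus strand and Gabrb2 at chr11:42420190-42420439 on the plus strand.
Gabra5: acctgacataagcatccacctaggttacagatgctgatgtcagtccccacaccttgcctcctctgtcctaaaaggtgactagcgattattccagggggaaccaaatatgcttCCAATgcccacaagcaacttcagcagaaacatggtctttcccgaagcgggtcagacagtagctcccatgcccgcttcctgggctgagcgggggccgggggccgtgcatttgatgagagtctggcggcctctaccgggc
Gabra3: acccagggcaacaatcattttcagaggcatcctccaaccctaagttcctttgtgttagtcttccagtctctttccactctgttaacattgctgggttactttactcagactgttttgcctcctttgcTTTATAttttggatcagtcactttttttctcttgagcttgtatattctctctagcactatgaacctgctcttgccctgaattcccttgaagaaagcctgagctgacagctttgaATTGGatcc
Gabrb2: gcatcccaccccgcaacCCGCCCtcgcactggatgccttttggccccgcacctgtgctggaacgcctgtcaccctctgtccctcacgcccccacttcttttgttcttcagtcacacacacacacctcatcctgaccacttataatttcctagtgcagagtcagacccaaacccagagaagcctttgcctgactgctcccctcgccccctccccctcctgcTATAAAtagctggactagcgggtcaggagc
TATAAA on the coding strand stood at -30 to -25 in Gabrb2, counted from the start site, and Gabra3 had the same letters on the opposite strand at -123 to -118. Of the 32851 promoters of the table, 12.4% held TATAAA on either strand in the same window. CCAAT, in 33.8% of promoters, was found at -138 to -134 in Gabra5 and, on the opposite strand, at -9 to -5 in Gabra3. GGGCGG, in 32.7%, was found on the opposite strand at -233 to -228 in Gabrb2. TGACG, in 17.8%, and CACGTG, in 6.02%, matched none of the 3, and no marked match overlapped another. None of the motifs was in all 3 windows. This holds for the first listed start sites only. Gabra3 and Gabrb2 have further start sites in the table, and start site 2 of Gabrb2 had CCAAT on the opposite strand at -71 to -67. The GC content was 56.4% for Gabra5, 42.4% for Gabra3 and 58.8% for Gabrb2, beside a median of 52.4% over all promoters.

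The other subunits did not separate the tissues by the test. Gabra4, the forebrain partner of delta and also abundant in striatum, was at 29.0, 29.2 and 28.6 FPKM in vesicle-treated 5xFAD hippocampus, 29.5, 22.1 and 33.1 FPKM in 5xFAD PBS hippocampus and 28.6, 27.2 and 20.99 FPKM in wildtype hippocampus. In prefrontal cortex Gabra4 was at 29.8, 36.4 and 26.2 FPKM in vesicle-treated 5xFAD mice, 35.7, 34.0 and 34.2 FPKM in 5xFAD PBS mice and 32.6, 29.2 and 36.9 FPKM in wildtype mice. The tissues did not overlap for Gabra4 in 5xFAD PBS mice and in wildtype mice, and overlapped in vesicle-treated 5xFAD mice. The log2 difference of Gabra4, hippocampus minus prefrontal cortex, was -0.08 (95% interval -0.38 to 0.23) in vesicle-treated 5xFAD mice, -0.31 (-0.62 to -0.0012) in 5xFAD PBS mice and -0.36 (-0.67 to -0.06) in wildtype mice. The limma adjusted p was 0.784 in vesicle-treated 5xFAD mice, 0.134 in 5xFAD PBS mice and 0.107 in wildtype mice. Without the library with cerebellar markers, the prefrontal library lowest in Gabra4, the difference in vesicle-treated 5xFAD mice was -0.18 (-0.51 to 0.15, limma adjusted p = 0.512).

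In prefrontal cortex the level of Gabra4 was highest in wildtype replicate 3 and vesicle-treated 5xFAD replicate 2. The same 2 libraries had the largest sums of the 10 striatal projection neuron markers, 772 FPKM in wildtype replicate 3 and 698 FPKM in vesicle-treated 5xFAD replicate 2, against 127 to 583 FPKM in the other 7. This was noticed after the values were seen, and its part in the spread of Gabra4 was not tested.

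Gabra2 encodes alpha2, a synaptic subunit prominent at the axon initial segment of pyramidal cells. In hippocampus it was at 11.5, 11.7 and 12.7 FPKM in vesicle-treated 5xFAD mice, 11.4, 7.75 and 9.11 FPKM in 5xFAD PBS mice and 14.3, 6.75 and 2.63 FPKM in wildtype mice. Prefrontal cortex had Gabra2 at 9.98, 9.45 and 9.08 FPKM in vesicle-treated 5xFAD mice, 9.21, 9.80 and 9.57 FPKM in 5xFAD PBS mice and 11.7, 9.66 and 8.63 FPKM in wildtype mice. The wildtype hippocampal libraries held both the highest and the lowest value of Gabra2 in the study. The log2 difference, hippocampus minus prefrontal cortex, was 0.31 (95% interval -0.42 to 1.04, adjusted p = 0.607 by limma) in vesicle-treated 5xFAD mice, -0.03 (-0.76 to 0.70, adjusted p = 0.960) in 5xFAD PBS mice and -0.58 (-1.32 to 0.15, adjusted p = 0.297) in wildtype mice. In wildtype mice this value of Gabra2 ran from -1.13 without hippocampus replicate 1, where it was called with an adjusted p of 0.00537, to -0.01 without hippocampus replicate 3. In vesicle-treated 5xFAD mice it was 0.28 without the library with cerebellar markers.

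Wildtype hippocampus replicate 3 had the lowest hippocampal level of 4 of the 7 subunits, Gabra2, Gabra4, Gabrb1 and Gabrb2. In this library genes of higher GC content also read higher, with a slope of 0.174 on the log2 scale per 10 percentage points of GC, against slopes of -0.0525 to 0.0569 in the other 17. Each slope was taken against the other libraries of the same tissue. The GC content of the longest annotated transcript was 38.4% for Gabra2, 42.2% for Gabra4, 40.9% for Gabrb1 and 44.02% for Gabrb2, below the median of 49.7% over all genes with a value. Of the other 3 subunits, which were not lowest in this library, Gabra3 had 43.06%, Gabra5 47.1% and Gabrd 54.8%. With trends over GC content and length removed from every library, Gabra2 was still not called in any comparison.

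Gabrb1 encodes beta1, a less abundant beta subunit. In hippocampus it was at 18.01, 17.6 and 12.4 FPKM in vesicle-treated 5xFAD mice, 17.4, 10.3 and 12.99 FPKM in 5xFAD PBS mice and 15.3, 11.7 and 9.80 FPKM in wildtype mice. In prefrontal cortex it was at 11.4, 11.7 and 9.97 FPKM in vesicle-treated 5xFAD mice, 12.5, 9.69 and 10.7 FPKM in 5xFAD PBS mice and 10.4, 7.97 and 12.3 FPKM in wildtype mice. The tissues overlapped in 5xFAD PBS and wildtype mice and did not in vesicle-treated 5xFAD mice, where the lowest hippocampal library was at 12.4 FPKM and the highest prefrontal one at 11.7 FPKM. The log2 difference of Gabrb1 was 0.50 (95% interval 0.08 to 0.93, adjusted p = 0.103 by limma) in vesicle-treated 5xFAD mice, 0.27 (-0.15 to 0.70, adjusted p = 0.352) in 5xFAD PBS mice and 0.25 (-0.18 to 0.67, adjusted p = 0.474) in wildtype mice. With the library of cerebellar markers left out, Gabrb1 was at 0.44 (adjusted p = 0.243 by limma) in vesicle-treated 5xFAD mice.

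The result for Gabrb1 depended on a trend over gene length. Its length recovered from the FPKM steps was 14565 bases, above 97.2% of genes. Within each tissue, per-library slopes over a doubling of length ran from -0.169 in 5xFAD PBS hippocampus replicate 2 to 0.103 in wildtype hippocampus replicate 1. The trends removed in the tissue fits were taken over all 18 libraries and are not these slopes. Their removal can also change a true difference between tissues that goes with length. With the length trend removed, Gabrb1 was higher in hippocampus by 0.63 (adjusted p = 0.000862 by limma) in vesicle-treated 5xFAD mice and 0.49 (adjusted p = 0.00488) in 5xFAD PBS mice. With trends over GC content and length both removed, an alternative added after the data were seen, it was 0.63 (adjusted p = 0.000647) in vesicle-treated 5xFAD mice, 0.48 (adjusted p = 0.00408) in 5xFAD PBS mice and 0.39 (adjusted p = 0.0210) in wildtype mice. Without vesicle-treated 5xFAD hippocampus replicate 3, Gabrb1 was called in vesicle-treated 5xFAD mice at 0.67 (adjusted p = 0.0398). In RefSeq GRCm38.p6 the start sites of Gabra4 and Gabrb1 face opposite ways with the starts 387 bases apart and their 5′ ends overlapping, and the use of strand is not given in the sources used here, so reads in the overlap cannot be told apart.

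Between groups of mice, none of the 7 subunits was called in either tissue. In hippocampus, limma across 13305 genes called 0 of 7 for vesicle-treated 5xFAD against 5xFAD PBS mice, where 0% of all genes were called, 0 of 7 for vesicle-treated 5xFAD against wildtype mice, where 2.1% were called (1.93% higher and 0.173% lower), and 0 of 7 for 5xFAD PBS against wildtype mice, where 4.59% were called (4.19% higher and 0.406% lower). In prefrontal cortex, across 13055 genes, it called 0 of 7 for vesicle-treated 5xFAD against 5xFAD PBS mice (0% of all genes), 0 of 7 for vesicle-treated 5xFAD against wildtype mice (1.52%, with 1.4% higher and 0.115% lower) and 0 of 7 for 5xFAD PBS against wildtype mice (1.96%, with 1.82% higher and 0.138% lower). At an unadjusted p under 0.05 the count was also 0 of 7 in all 6 comparisons, and limma voom on the recovered reads called 0 of 7 in each. The shares of all genes for these 2 counts are not given here. The 3 comparisons of a tissue share their groups, so their values are not independent of each other.

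**Figure D3:**
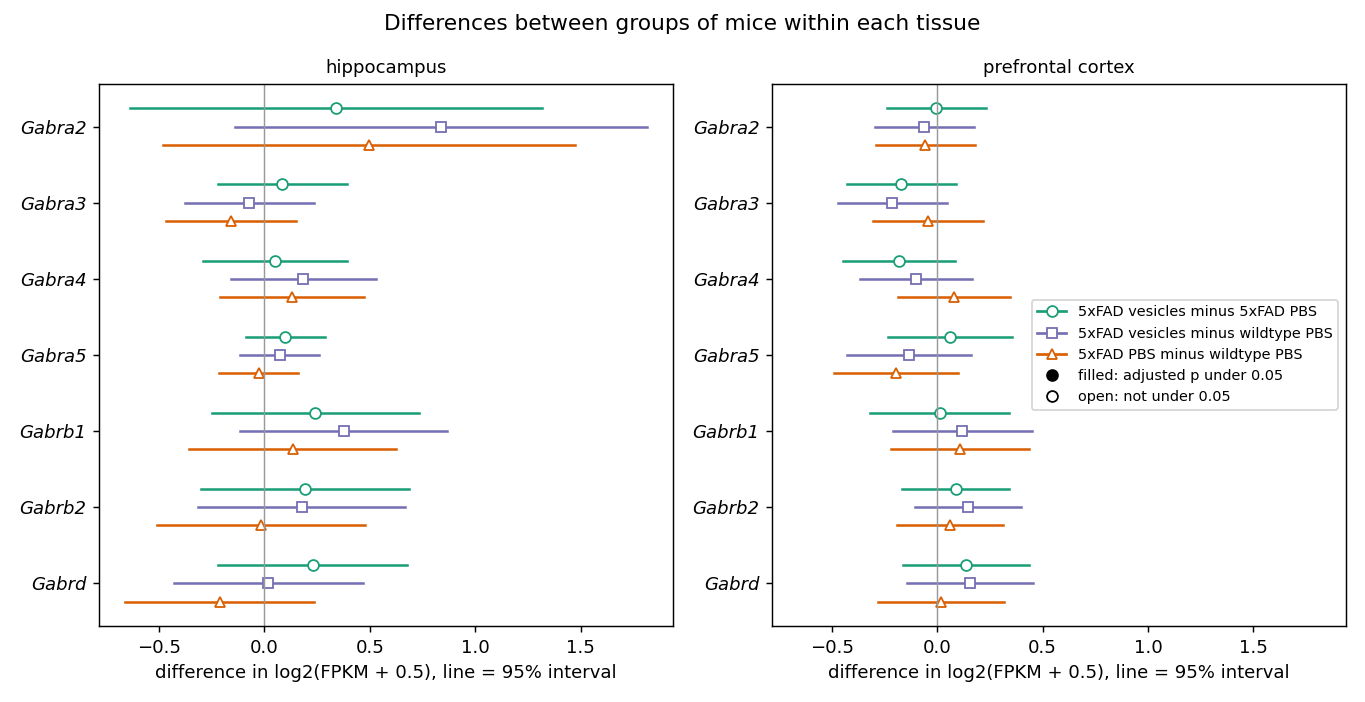
Difference in log2(FPKM + 0.5) between groups of mice (x axis) for each subunit in hippocampus (left) and prefrontal cortex (right), with a line for the 95% interval and open points where the limma adjusted p was not under 0.05 (n = 3 libraries per group). All points are open and every interval includes 0; the widest are those of Gabra2 in hippocampus.

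In prefrontal cortex every interval between groups of mice included 0. For 5xFAD PBS against wildtype mice, the largest difference was that of Gabra5 at -0.20 (95% interval -0.49 to 0.10, adjusted p = 0.893 by limma), followed by Gabrb1 at 0.11, Gabra4 at 0.08, Gabrb2 at 0.06, Gabra2 at -0.06, Gabra3 at -0.04 and Gabrd at 0.02. For vesicle-treated 5xFAD against 5xFAD PBS mice, Gabra4 was at -0.18 (-0.45 to 0.08), Gabra3 at -0.17 (-0.43 to 0.09) and Gabrd at 0.14 (-0.16 to 0.44), and Gabrb2 at 0.09, Gabra5 at 0.06, Gabrb1 at 0.01 and Gabra2 at -0.0044. Without the library with cerebellar markers these were -0.07 for Gabra4, -0.03 for Gabra3, -0.03 for Gabrd, -0.01 for Gabrb2, 0.21 for Gabra5, 0.08 for Gabrb1 and 0.03 for Gabra2. Gabrb2, Gabrd and Gabra2 thus lay on the other side of 0 without it. For vesicle-treated 5xFAD against wildtype mice, Gabra3 was at -0.21 (-0.47 to 0.05), Gabrd at 0.16, Gabrb2 at 0.15, Gabra5 at -0.13, Gabrb1 at 0.12, Gabra4 at -0.10 and Gabra2 at -0.06. Without that library they were -0.08 for Gabra3, -0.02 for Gabrd, 0.05 for Gabrb2, 0.02 for Gabra5, 0.19 for Gabrb1, 0.0067 for Gabra4 and -0.03 for Gabra2. No subunit had groups without overlap in any of the 3 comparisons, against 10.6% of all genes for vesicle-treated 5xFAD against 5xFAD PBS mice, 19.3% for vesicle-treated 5xFAD against wildtype mice and 14.7% for 5xFAD PBS against wildtype mice.

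In hippocampus the levels of Gabra5 were held within the narrowest intervals. The log2 difference of Gabra5 was 0.10 (95% interval -0.09 to 0.29) for vesicle-treated 5xFAD against 5xFAD PBS mice, 0.07 (-0.12 to 0.26) for vesicle-treated 5xFAD against wildtype mice and -0.03 (-0.21 to 0.16) for 5xFAD PBS against wildtype mice. Gabra2 had the widest intervals, at 0.34 (-0.64 to 1.31, adjusted p = 0.876 by limma) for vesicle-treated 5xFAD against 5xFAD PBS mice, 0.84 (-0.14 to 1.81, adjusted p = 0.503) for vesicle-treated 5xFAD against wildtype mice and 0.50 (-0.48 to 1.47, adjusted p = 0.589) for 5xFAD PBS against wildtype mice. Without wildtype hippocampus replicate 3, Gabra2 was at 0.26 for vesicle-treated 5xFAD against wildtype mice and at -0.08 for 5xFAD PBS against wildtype mice. Without wildtype hippocampus replicate 1, the highest library, it was at 1.38 (adjusted p = 0.0795 by limma) for vesicle-treated 5xFAD against wildtype mice and at 1.04 (adjusted p = 0.137) for 5xFAD PBS against wildtype mice. Gabrd was at 0.23 (-0.22 to 0.68) for vesicle-treated 5xFAD against 5xFAD PBS mice at 0.02 for vesicle-treated 5xFAD against wildtype mice and at -0.21 (-0.66 to 0.24) for 5xFAD PBS against wildtype mice. Gabrb1 was at 0.24 (-0.25 to 0.73) for vesicle-treated 5xFAD against 5xFAD PBS mice and at 0.38 (-0.12 to 0.87) against wildtype mice, and Gabrb2 at 0.19 (-0.30 to 0.69) and 0.18 (-0.32 to 0.67). For 5xFAD PBS against wildtype mice Gabrb1 was at 0.13 and Gabrb2 at -0.02. Gabra3 was at 0.09 for vesicle-treated 5xFAD against 5xFAD PBS mice, -0.07 for vesicle-treated 5xFAD against wildtype mice and -0.16 for 5xFAD PBS against wildtype mice. Gabra4 was at 0.05 for vesicle-treated 5xFAD against 5xFAD PBS mice, 0.19 for vesicle-treated 5xFAD against wildtype mice and 0.13 for 5xFAD PBS against wildtype mice.

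Vesicle-treated 5xFAD hippocampus had point estimates above 5xFAD PBS hippocampus for all 7 subunits, none of them called. The median of the 7 was 0.19 on the log2 scale, beside -0.02 over all genes tested, and the 7 ran from 0.05 for Gabra4 to 0.34 for Gabra2. Gabra2 was the 1 subunit without overlap, at 11.5 to 12.7 FPKM in vesicle-treated 5xFAD mice and 7.75 to 11.4 FPKM in 5xFAD PBS mice, where 7.51% of all genes did not overlap. Without 5xFAD PBS hippocampus replicate 2, the library with the steepest length slope, Gabra3 was at -0.08 and Gabra4 at -0.11, and the median of the 7 was 0.07. With the length trend removed the median was 0.08, with trends over GC content and length removed 0.08, and with a choroid plexus covariate 0.11. No subunit was without overlap for vesicle-treated 5xFAD against wildtype hippocampus, where 18.6% of all genes were, or for 5xFAD PBS against wildtype hippocampus, where 25.5% were.

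The difference between tissues in these effects was tested directly across 13574 genes in all 18 libraries. None of the 7 subunits, and 0% of all genes, was called for a genotype effect that differed between hippocampus and prefrontal cortex, and likewise for a vesicle effect. At an unadjusted p under 0.05, 0 of 7 passed for either, and voom called 0 of 7. The share of all genes at this unadjusted level is not given here. The difference in the genotype effect, hippocampus minus prefrontal cortex, was 0.55 (95% interval -0.48 to 1.59) for Gabra2, -0.23 (-0.78 to 0.32) for Gabrd, 0.17 (-0.17 to 0.51) for Gabra5 and -0.11 (-0.51 to 0.29) for Gabra3, and it was 0.05 for Gabra4, 0.03 for Gabrb1 and -0.08 for Gabrb2. The difference in the vesicle effect was 0.34 (-0.69 to 1.38) for Gabra2, 0.25 (-0.15 to 0.66) for Gabra3, 0.23 (-0.20 to 0.67) for Gabra4 and 0.23 (-0.37 to 0.83) for Gabrb1, and it was 0.11 for Gabrb2, 0.09 for Gabrd and 0.04 for Gabra5. With the library of cerebellar markers left out, the difference in the vesicle effect was 0.31 for Gabra2, 0.12 for Gabra3, 0.12 for Gabra4, 0.16 for Gabrb1, 0.20 for Gabrb2, 0.26 for Gabrd and -0.11 for Gabra5.

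Of the 4 alpha subunits followed here, set beside each other per length, Gabra5 was the highest in hippocampus and the third in prefrontal cortex in each group of mice, and Gabra2 was the lowest in both tissues. In vesicle-treated 5xFAD hippocampus the order of mean levels was Gabra5 at 63.9, Gabra4 at 28.9, Gabra3 at 24.6 and Gabra2 at 11.9 FPKM, and in 5xFAD PBS hippocampus it was Gabra5 at 59.7, Gabra4 at 28.3, Gabra3 at 23.4 and Gabra2 at 9.43 FPKM. In wildtype hippocampus the order of mean levels was Gabra5 at 60.9, Gabra3 at 25.9, Gabra4 at 25.6 and Gabra2 at 7.90 FPKM. In prefrontal cortex the order was Gabra3 at 55.4, Gabra4 at 30.8, Gabra5 at 20.8 and Gabra2 at 9.50 FPKM in vesicle-treated 5xFAD mice, and Gabra3 at 61.9, Gabra4 at 34.7, Gabra5 at 19.8 and Gabra2 at 9.53 FPKM in 5xFAD PBS mice. In wildtype prefrontal cortex it was Gabra3 at 63.9, Gabra4 at 32.9, Gabra5 at 22.7 and Gabra2 at 9.99 FPKM. The values of Gabra3 and Gabra4 overlapped in 5xFAD PBS and wildtype hippocampus and did not in vesicle-treated 5xFAD hippocampus, and they did not overlap in the prefrontal cortex of any group.

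As a share of the summed FPKM of the 7 subunits, Gabra5 made up 34.0% ± 0.467 in vesicle-treated 5xFAD, 35.1% ± 5.20 in 5xFAD PBS and 35.6% ± 4.99 in wildtype hippocampus (SD, n = 3 each). In prefrontal cortex it made up 9.85% ± 1.66 in vesicle-treated 5xFAD, 9.26% ± 0.849 in 5xFAD PBS and 10.6% ± 1.37 in wildtype mice. The share of Gabra3 was 13.1% ± 0.543 in vesicle-treated 5xFAD, 13.6% ± 1.45 in 5xFAD PBS and 15.1% ± 1.07 in wildtype hippocampus. Its prefrontal share was 26.3% ± 3.96 in vesicle-treated 5xFAD, 29.03% ± 1.67 in 5xFAD PBS and 29.9% ± 1.84 in wildtype mice. Gabrd made up 7.06% ± 0.908 in vesicle-treated 5xFAD, 6.67% ± 1.57 in 5xFAD PBS and 7.82% ± 2.21 in wildtype hippocampus, and 17.8% ± 4.28, 15.7% ± 1.59 and 15.5% ± 1.27 in the prefrontal cortex of vesicle-treated 5xFAD, 5xFAD PBS and wildtype mice. The shares of these 3 subunits did not overlap between the tissues in any group. An exact two-sided permutation test gave 0.1 for each, the smallest p that 3 against 3 libraries allow, or 0.367 after Benjamini-Hochberg adjustment over 99 share tests.

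The share of Gabrb1 did not overlap between the tissues in any group either, although its levels overlapped in 5xFAD PBS and wildtype mice. It was 8.49% ± 1.57 in vesicle-treated 5xFAD, 7.83% ± 1.44 in 5xFAD PBS and 7.04% ± 0.726 in wildtype hippocampus, against 5.22% ± 0.342, 5.14% ± 0.656 and 4.76% ± 0.835 in the prefrontal cortex of vesicle-treated 5xFAD, 5xFAD PBS and wildtype mice (exact permutation p = 0.1, adjusted p = 0.367, n = 3 each). The share of Gabra4 overlapped between the tissues in every group. In all, 16 of the 21 share tests between tissues gave groups without overlap, and 1 of the 42 between groups of mice within a tissue. Groups without overlap are the arrangement with an exact permutation p of 0.1, so 1 of 42 is no excess. The shares of a library add up to the whole, so a large change in 1 subunit moves the others and these tests are not independent. The 1 share test without overlap within a tissue was Gabra3 in hippocampus, at 13.1% ± 0.543 in vesicle-treated 5xFAD and 15.1% ± 1.07 in wildtype mice (exact permutation p = 0.1, adjusted p = 0.367, n = 3 each).

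**Figure D4:**
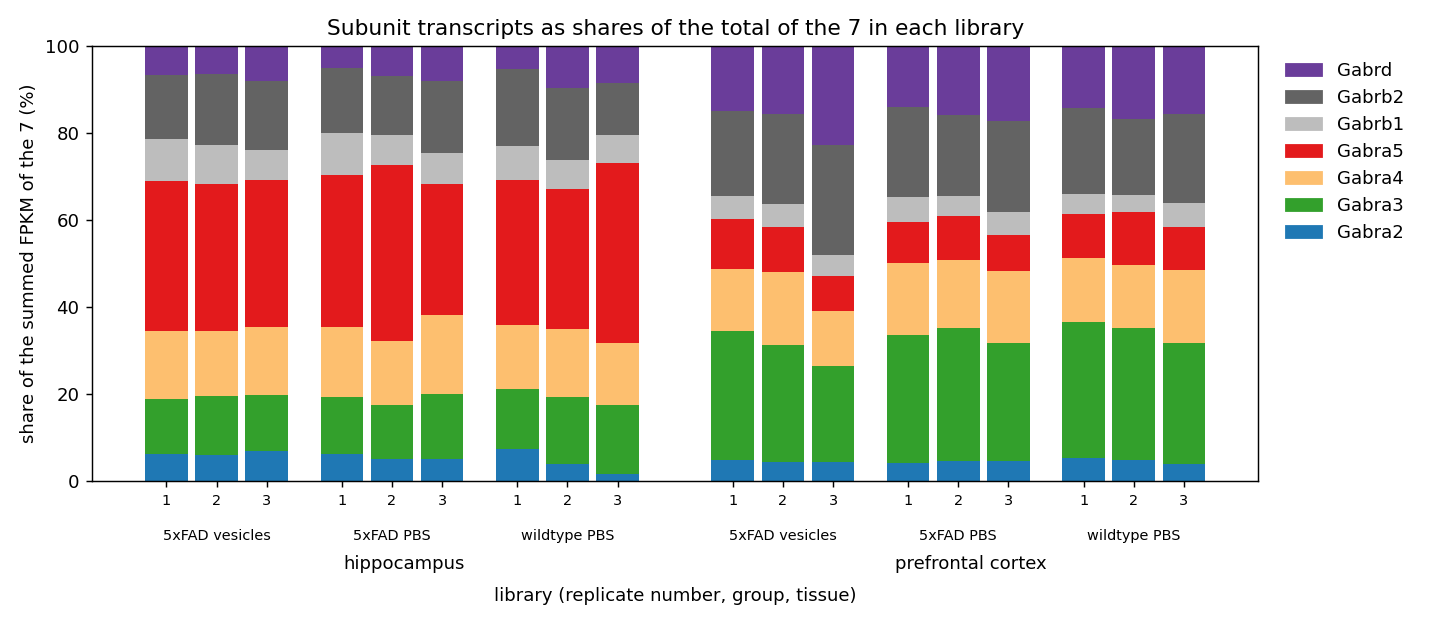
Share of each subunit in the summed FPKM of the 7 (y axis, in percent, from 0 to 100) in each of the 18 libraries, ordered by tissue, group and replicate number. Gabra5 takes 30.01 to 41.4% in hippocampus and 8.06 to 12.2% in prefrontal cortex, and Gabra3 takes 12.3 to 15.9% in hippocampus and 22.01 to 31.3% in prefrontal cortex.

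The library with cerebellar markers had the lowest share of Gabra3, 22.01%, and of Gabra5, 8.06%, and the highest share of Gabrd, 22.8%, among the prefrontal libraries. In replicates 1 and 2 of vesicle-treated 5xFAD prefrontal cortex the shares were 29.8% and 27.02% for Gabra3, 11.3% and 10.2% for Gabra5 and 15.05% and 15.7% for Gabrd. Gabra6, the alpha subunit of cerebellar granule cells, was at 89.8 FPKM there and at 0 to 0.133 FPKM in the other 17 libraries. In prefrontal cortex this library had the lowest level of Gabra3, Gabra4 and Gabra5 and the highest of Gabrb2 and Gabrd. Its sum of neocortical markers was 106 FPKM, against 154 to 180 FPKM in the other 8 prefrontal libraries. Its sum of the 11 measured GABAergic interneuron markers was 998 FPKM, inside the 873 to 1252 FPKM of those 8. The part of these transcripts in the levels of the 7 subunits was not tested.

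Of the gamma subunits, Gabrg3 was lower in hippocampus in all 3 groups of mice, by -0.66 on the log2 scale (adjusted p = 0.0162 by limma) in vesicle-treated 5xFAD, -1.01 (adjusted p = 0.000615) in 5xFAD PBS and -0.69 (adjusted p = 0.0126) in wildtype mice. Gabrg1 was lower by -0.46 (adjusted p = 0.0177) in vesicle-treated 5xFAD and -0.79 (adjusted p = 0.000363) in wildtype mice, and was at -0.33 (adjusted p = 0.0673) in 5xFAD PBS mice. Without the library with cerebellar markers, the differences in vesicle-treated 5xFAD mice were -0.82 (adjusted p = 0.00494 by limma) for Gabrg3 and -0.58 (adjusted p = 0.00527) for Gabrg1.

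The Gabr genes lie in clusters. In RefSeq GRCm38.p6, Gabra2, Gabra4 and Gabrb1 are neighbours on chromosome 5 beside Gabrg1, with Cox7b2 between Gabra2 and Gabra4. Gabra5 lies beside Gabrg3 on chromosome 7, Gabrb2 beside Gabra6 on chromosome 11, Gabra3 beside Gabrq on chromosome X and Gabrd on chromosome 4 between Prkcz and Cfap74. Gabra5 and Gabrg3 differed in direction between tissues: Gabra5 was called higher in hippocampus in all 3 groups of mice, while Gabrg3 was called lower.

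Of 12 genes of GABA synthesis, transport and breakdown, 5 were called lower in hippocampus in vesicle-treated 5xFAD mice, against 8.32% of all genes, 4 in 5xFAD PBS mice, against 9.78%, and 1 in wildtype mice, against 7.16%, and none was called higher. The 1 of 12 in wildtype mice is a share near that of all genes. With the library of cerebellar markers left out, 3 of 12 were called lower in vesicle-treated 5xFAD mice, with Slc32a1 at -0.77, Gad1 at -0.70 and Gad2 at -0.70. Gad1, Gad2 and Slc32a1 also stand in the list of interneuron markers given above. Slc32a1, the vesicular GABA transporter, was lower by -0.80 in vesicle-treated 5xFAD mice and -0.71 in 5xFAD PBS mice. Gad1, which makes GABA, was lower by -0.79 in vesicle-treated 5xFAD mice and -0.52 in 5xFAD PBS mice, and Gad2, its paralog, by -0.70, -0.75 and -0.57 in vesicle-treated 5xFAD, 5xFAD PBS and wildtype mice. The median log2 difference of the 12 was -0.34 in vesicle-treated 5xFAD, -0.15 in 5xFAD PBS and -0.17 in wildtype mice.

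Of 25 genes of receptor scaffolds, assembly and trafficking, 2 were called higher and 1 lower in hippocampus in vesicle-treated 5xFAD mice, 0 and 3 in 5xFAD PBS mice and 2 and 2 in wildtype mice. In both directions together these are 3, 3 and 4 of 25, against 16.9% of all genes in vesicle-treated 5xFAD, 25.1% in 5xFAD PBS and 15.9% in wildtype mice, so near or below the share of all genes in each group. Insyn2a, a component of inhibitory postsynaptic sites, was lower in all 3 groups, by -0.44 in vesicle-treated 5xFAD, -0.42 in 5xFAD PBS and -0.40 in wildtype mice, and Nsf, which takes part in receptor trafficking, was higher by 0.37 in vesicle-treated 5xFAD mice and 0.28 in wildtype mice. Plcl2, which binds beta subunits, was lower by -0.55 in 5xFAD PBS mice and -0.40 in wildtype mice. Gphn, the gephyrin scaffold, was not called in any. Without the library with cerebellar markers 1 of 25 was called higher and 2 lower in vesicle-treated 5xFAD mice, with Nsf at 0.31 and Insyn2a at -0.47.

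The chloride gradient decides whether these receptors inhibit. Of 11 genes of chloride transport, 0 were called higher and 2 lower in hippocampus in vesicle-treated 5xFAD mice, 2 and 3 in 5xFAD PBS mice and 1 and 0 in wildtype mice. The 2, 5 and 1 of 11 stand against 16.9% of all genes in vesicle-treated 5xFAD, 25.1% in 5xFAD PBS and 15.9% in wildtype mice, so the counts in vesicle-treated 5xFAD and wildtype mice are near or below the share of all genes. Slc12a5, the neuronal chloride exporter KCC2, was lower by -0.43 in vesicle-treated 5xFAD and -0.59 in 5xFAD PBS mice, and by -0.45 in vesicle-treated 5xFAD mice without the library with cerebellar markers. Slc12a2, the importer NKCC1 and also a choroid plexus gene, was higher by 0.79 in 5xFAD PBS mice, where all 12 choroid plexus markers were also called higher in hippocampus. The part of choroid plexus content in this value was not tested.

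Of 8 genes of GABA-B receptors and effectors, 1 was called higher and 2 lower in hippocampus in vesicle-treated 5xFAD mice, 1 and 4 in 5xFAD PBS mice and 1 and 0 in wildtype mice. The 3, 5 and 1 of 8 stand against 16.9% of all genes in vesicle-treated 5xFAD, 25.1% in 5xFAD PBS and 15.9% in wildtype mice, and the count in wildtype mice is below the share of all genes. The gene called higher was Kctd12, an auxiliary subunit, at 0.53, 0.74 and 0.71 in vesicle-treated 5xFAD, 5xFAD PBS and wildtype mice, and at 0.77 in vesicle-treated 5xFAD mice without the library with cerebellar markers. Of 7 measured genes for ligands of the neurosteroid and benzodiazepine sites, out of 10 listed, Tspo at 1.14 and Dbi at 0.88 were called higher in 5xFAD PBS hippocampus than in 5xFAD PBS prefrontal cortex, and none was called in vesicle-treated 5xFAD or wildtype mice. The 2 of 7 in 5xFAD PBS mice stand against 25.1% of all genes called, with 15.3% called higher. That is near the share of all genes called in either direction. Between groups of mice, the 1 gene called in these lists was Tspo, a mitochondrial protein of glia and a site of benzodiazepine binding, which was higher by 1.31 (SE 0.29, adjusted p = 0.033 by limma) in 5xFAD PBS than in wildtype hippocampus. That is 1 of 7 measured genes of its list, against 4.59% of all genes. In the same comparison 7 of 8 microglia markers were called higher, with a median log2 difference of 1.28 and sums of 625 to 731 FPKM in 5xFAD PBS and 199 to 233 FPKM in wildtype hippocampus. The 12 choroid plexus markers summed to 2647 to 8987 FPKM in 5xFAD PBS and 37.5 to 172.0 FPKM in wildtype hippocampus. The part of microglia and choroid plexus content in the value of Tspo was not tested.

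Profiles over the 18 libraries were compared by the root-mean-square difference in log2(FPKM + 0.5), each gene less its own mean, against 13268 named genes. Closest to Gabra5 were Sertm1, Wipf3 and Cpne6, each at 0.12 to 0.13. Closest to Gabra3 were Tiam2 at 0.11, Pcdh10 at 0.12 and Gfra2 at 0.14, and closest to Gabrb2 were Hecw1 at 0.11, Fgf14 at 0.12 and Rgs7bp at 0.12. Gabrd was nearest to Garnl3 at 0.16, Hs3st5 at 0.17 and Kcnt1 at 0.17. Around their own means these subunits varied by 0.40 for Gabrb2, 0.66 for Gabra3, 0.75 for Gabrd and 0.78 for Gabra5.

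Gabra2, which varied by 0.47 around its mean, was nearest to Eif5b at 0.15, Tmed5 at 0.21 and Zfp942 at 0.21, and Eif5b ran from 5.35 to 21.2 FPKM over the hippocampal libraries. Gabrb1 was nearest to Cacna1e at 0.11, Plppr4 at 0.12 and Nexmif at 0.13, and Gabra4 to Tomm70a at 0.10, Abi2 at 0.11 and Mtpn at 0.12. These are distances over libraries that share tissue, depth and composition, and carry no test.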

How the data were processed

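RNA from prefrontal cortex and hippocampus was sequenced in 18 libraries, 3 per group and tissue, grouped by their titles. The authors deposited one table of FPKM values per gene, with no counts. Per the submitters' processing notes, fastp, HISAT2 and HTSeq and the build GRCm39 were used, without versions. Not given in the sources used here were the annotation, the gene lengths, the library totals and whether reads were counted by strand. FPKM steps of 1 read gave whole reads for 100% of genes (tolerance 1e-06 of a step), with 26437852 to 36901744 reads per library, which served only as depth and for voom.

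Genes that reached 0.5 FPKM in 3 or more libraries were tested on log2(FPKM + 0.5) with limma 3.58.1 in R 4.3.3 (empirical Bayes with intensity trend, two-sided), over the 9 libraries of a tissue for comparisons of mice and all 18 for tissues and interactions. Benjamini-Hochberg adjustment ran over all genes tested, and intervals are 95% intervals. A log2 difference on this scale understates changes of low genes. The fit was also run on simulated counts with the same dispersion for every gene and no differences in tissue composition or library trends. That check does not cover such features of these libraries. Shares used exact permutation tests over samples.

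Alternatives were pseudocounts of 0.1 and 1, no filter, median-of-ratios scaling, voom with TMM on recovered reads, removal of length trends, a replicate block, only the 2 groups compared, a choroid plexus covariate and leaving out each library. Removal of GC and length trends together, and leaving vesicle-treated 5xFAD prefrontal replicate 3 out of every fit, were chosen after seeing the data. Equal replicate numbers were checked for pairing by the correlation of deviations from group means. Every pair was over 0.1 in 1 comparison, 5xFAD PBS against wildtype prefrontal cortex (0.213, 0.509 and 0.169), from the values and not the labels. There the block changed no call among the 7 subunits, while 218 of all genes were called with it, against 256 without it.

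The rule for named genes takes all 7 subunits in every comparison. Of each other list, at most the 5 called genes with the largest log2 difference per comparison are named, and of likeness the 3 nearest genes per subunit, leaving out unnamed gene models. Some Gabr genes, and shares that need them, are not reported here. Subunits and lists were chosen with earlier results of these data known. GC content came from GENCODE M21 transcripts by symbol, for 96.3% of genes, and promoters and neighbours from RefSeq GRCm38.p6, a build other than that of the table.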

Additional observations from a re-analysis of the deposited data

How the results depend on the processing

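The count of subunits called was 0 in every comparison between groups of mice under every alternative run. Between tissues it was 4 in each group, with 3 to 5 in wildtype, 3 to 4 in 5xFAD PBS and 3 to 4 in vesicle-treated 5xFAD mice when 1 library was left out, and 3 to 5 under the other alternatives. Gabrb2 and Gabrb1 account for these shifts, except that Gabra2 was called in wildtype mice without hippocampus replicate 1. With the replicate block, 4 subunits were called between tissues in each group and 0 between groups of mice, so the pairing changed no count. Of the 99 share tests run, 27 gave groups without overlap, and 27 to 40 with 1 library left out. Leaving a library out can only keep or widen a gap between groups, so this count could not fall. Over all genes, 5xFAD PBS against wildtype hippocampus gave 611 calls, 931 with the length trend removed (733 higher and 198 lower, against 557 and 54), 994 with GC and length trends removed (800 and 194), 262 with the choroid plexus covariate and 320 to 446 with 1 library left out. Vesicle-treated 5xFAD against wildtype mice gave 280 calls in hippocampus (431 with GC and length trends removed, 159 to 278 with 1 library left out) and 198 in prefrontal cortex (118 with only the 2 groups compared, 89 to 229 with 1 library left out). For 5xFAD PBS against wildtype prefrontal cortex 256 became 142 to 218 with 1 library left out, and between tissues in 5xFAD PBS mice 3410 became 2140 to 3320. The cause of these shifts was not tested. With 3 libraries per group, differences inside the printed intervals could not be told from 0.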
